A study of Mus musculus with 3 samples.

Results

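Neutrophil granule and surface receptor genes were followed in healing mouse skin. The set was a list of 10 genes fixed by name: the granule protein genes Ngp, Ltf, Camp and Lcn2, and the receptor genes Trem1, Csf3r, Fpr1, Fpr2, Clec4d and Clec4e. The list was chosen with earlier results of these data known. A probe set naming 1 gene was found for 8 of the 10, among 19938 named genes on the array, and each of the 8 was read by 1 probe set. Fpr1 and Fpr2, which encode receptors for the formylated peptides that bacteria and damaged mitochondria release, had no listed probe set, and their levels were not analysed here. The tissue came from C57Bl/6 mice, an inbred strain, that were 6 weeks old and carried a back wound of 1.5 cm2 through the full depth of the skin. The 3 groups were wounds collected on day 10, day 12 and day 14, with no unwounded skin in this comparison. Wound epidermis and dermis of 3 mice were pooled for each day and hybridised to 1 array, so that there was 1 value per gene and day. No difference between days had a replicate check, no test was possible, and the number of arrays limits the precision.

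Neutrophils enter a wound from the blood and kill microbes there with preformed granule proteins and with oxidants. The proteins of the specific granules are made mainly while the cells mature in the bone marrow, and their transcripts are largely gone from mature neutrophils in tissue. Surface receptors for growth factors, bacterial products and debris, in contrast, are still transcribed in mature cells, and several of them are shared with monocytes and macrophages. Lcn2, which encodes lipocalin 2, a binder of bacterial iron carriers, is in addition made by inflamed keratinocytes.

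The receptor genes Trem1, Clec4d and Clec4e and the granule gene Lcn2 were each highest on day 12, and Trem1, Clec4d and Clec4e were at least 2-fold lower on day 14 than on day 12. The granule genes Ngp, Ltf and Camp differed by at most 0.06 log2 units between any pair of days. Csf3r had equal values on day 10 and day 12 and a small difference on day 14, which did not exceed the spread between probe sets given below. The promoters of the 4 genes that were highest on day 12 are shown because these genes shared that highest day. Lcn2, unlike the other genes of this group, was lowest on day 10 and not on day 14. The promoter of Ngp is shown as 1 example of a granule gene with small differences, whose motif content differs from that of Ltf and Camp. Each line gives the 250 bases before the transcription start, 5′ to 3′, from RefSeq on the build GRCm38.p6, in which all 10 genes were matched by symbol. Capitals mark matches on either strand to the C/EBP consensus TTNNGNAA or the PU.1 core GAGGAA, which name factors of granulocyte and myeloid differentiation. Trem1 lies at chr17:48232489-48232738 on the plus strand, Clec4d at chr6:123261857-123262106 on the plus strand, and Clec4e at chr6:123289872-123290121 on the minus strand. Lcn2 lies at chr2:32387740-32387989 on the minus strand and Ngp at chr9:110419558-110419807 on the plus strand.
Trem1: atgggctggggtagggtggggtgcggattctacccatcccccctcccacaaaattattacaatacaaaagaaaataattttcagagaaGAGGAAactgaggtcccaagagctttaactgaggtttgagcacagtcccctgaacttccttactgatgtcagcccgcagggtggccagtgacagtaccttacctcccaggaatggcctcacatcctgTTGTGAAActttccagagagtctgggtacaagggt
Clec4d: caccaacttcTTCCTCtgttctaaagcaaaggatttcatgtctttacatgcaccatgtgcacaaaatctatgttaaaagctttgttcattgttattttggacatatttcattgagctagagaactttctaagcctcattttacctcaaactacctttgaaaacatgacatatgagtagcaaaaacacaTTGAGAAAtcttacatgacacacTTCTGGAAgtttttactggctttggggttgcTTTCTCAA
Clec4e: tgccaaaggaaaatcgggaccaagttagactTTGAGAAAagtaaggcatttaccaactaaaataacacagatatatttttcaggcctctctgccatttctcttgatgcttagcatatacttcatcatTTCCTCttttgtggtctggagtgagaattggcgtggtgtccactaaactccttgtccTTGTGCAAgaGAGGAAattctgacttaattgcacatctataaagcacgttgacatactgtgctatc
Lcn2: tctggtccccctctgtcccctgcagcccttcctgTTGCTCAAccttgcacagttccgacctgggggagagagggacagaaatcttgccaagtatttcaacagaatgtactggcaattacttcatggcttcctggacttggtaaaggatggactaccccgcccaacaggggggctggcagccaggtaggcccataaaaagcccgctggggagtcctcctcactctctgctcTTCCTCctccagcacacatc
Ngp: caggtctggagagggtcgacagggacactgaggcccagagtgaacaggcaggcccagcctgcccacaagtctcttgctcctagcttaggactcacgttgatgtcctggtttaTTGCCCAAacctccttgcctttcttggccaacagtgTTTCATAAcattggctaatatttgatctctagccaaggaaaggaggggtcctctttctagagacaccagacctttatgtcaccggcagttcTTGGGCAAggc

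Both strands of these windows were searched. A C/EBP match was present in 8 of the 10 genes, and in 36.8% of 32851 promoter windows of the same length. A PU.1 core was present in 7 of the 10, against 23.3% of windows. The NF-kB consensus was present in none of the 10, against 3.90% of windows. In the Clec4e window a C/EBP match from base 66 to base 59 before the start is followed by a PU.1 core from base 56 to base 51, and the matches do not overlap. Among the granule genes with small differences, Ngp held 3 C/EBP matches and 0 PU.1 cores, Ltf held 2 and 1, and Camp held neither motif. Trem1 and Lcn2 held 1 of each, Clec4d 3 and 1, and Clec4e 2 and 2. A match is a description of the letters and not a bound site.

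In the gene order of the same assembly, Clec4d and Clec4e are neighbours with 0 protein-coding genes between them, and so are Fpr1 and Fpr2. Ngp and Camp lie on chromosome 9 with 8 protein-coding genes between them, and 20 lie between Ngp and Ltf.

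Trem1 encodes an activating receptor of neutrophils and monocytes that signals through the adaptor Tyrobp and amplifies responses to microbial products. Its log2 levels were 8.38, 9.12 and 6.98 on day 10, day 12 and day 14. Day 12 was the highest and day 14 the lowest. Day 12 stood 0.74 above day 10, and the difference between day 14 and day 12 was −2.14, a 4.41-fold lower value. Only 4 of the 19938 named genes had a lower difference on day 14 against day 12, since Trem1 took rank 5. Day 14 was also 2.63-fold below day 10, and this difference took rank 28 from the lowest.

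Clec4d and Clec4e encode C-type lectin receptors, MCL and Mincle, which recognise a glycolipid of mycobacterial cell walls and signal through Fcer1g, Syk and Card9. Mincle also binds a protein released by dying cells. Clec4e had log2 levels of 9.98, 10.9 and 9.80 on day 10, day 12 and day 14. Clec4d had 10.1, 10.6 and 9.51 on the same days. In both genes day 12 was the highest and day 14 the lowest. On day 12 against day 10, Clec4e was 1.88-fold higher and Clec4d 1.38-fold higher. On day 14 against day 12, the fold sizes were nearly equal, with Clec4e 2.13-fold lower and Clec4d 2.12-fold lower, at ranks 32 and 33 from the lowest. Over the whole interval they parted, since Clec4d was 1.54-fold lower on day 14 than on day 10 and Clec4e 1.13-fold lower.

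Csf3r encodes the receptor for granulocyte colony-stimulating factor, which drives the production and survival of neutrophils. Its log2 levels were 9.55, 9.55 and 9.39 on day 10, day 12 and day 14. The first values were identical and the last was 0.16 lower. The gene for its ligand, Csf3, read 6.32 on each day, below the level filter of 8.36 defined below. Equal values at such a level are not a precise measure of no difference.

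**Figure D1:**
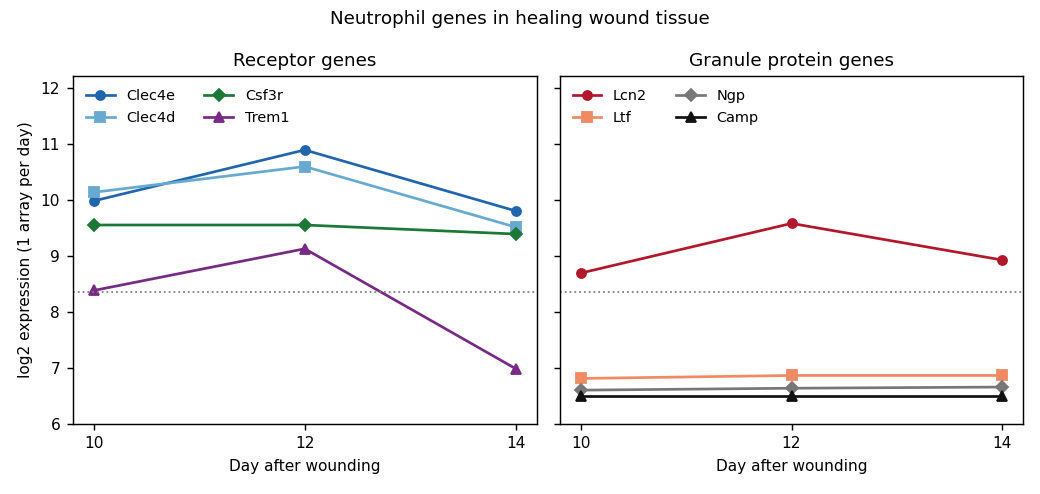
Log2 expression (vertical axis) of the 8 measured genes on day 10, day 12 and day 14 (horizontal axis), with receptor genes on the left and granule protein genes on the right; each point is 1 array of pooled tissue from 3 mice, and the dotted line marks the level filter at 8.36. Trem1, Clec4d, Clec4e and Lcn2 have their highest point on day 12, while Ngp, Ltf and Camp run flat below the filter. Heights of different genes come from different probes and are not compared.

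Among the granule genes, Lcn2 had log2 levels of 8.69 on day 10, 9.58 on day 12 and 8.92 on day 14. Day 12 was again the highest, but here day 10 and not day 14 was the lowest. Lcn2 was 1.85-fold higher on day 12 than on day 10, 1.57-fold lower on day 14 than on day 12, and 1.18-fold higher on day 14 than on day 10. Its difference on day 14 against day 12 took rank 106 from the lowest.

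Ngp encodes a granule protein related to the cathelicidins, Ltf the iron-binding protein lactoferrin, and Camp the precursor of the mouse cathelicidin peptide. Ngp read 6.60, 6.63 and 6.66 on day 10, day 12 and day 14. Ltf read 6.81, 6.86 and 6.86, and Camp 6.50 on each day. None of the 3 reached the level filter of 8.36, the median over named genes of the highest value on the 3 arrays, and detection per probe set is unknown for these arrays. The filter was passed by the other 5 measured genes, and Trem1 passed it on day 10 and day 12 but not on day 14. Identical values were common, since 8221 of 35556 probe sets (23.1%) had the same value on all 3 arrays, so that an equal value is not a precise measure of no difference.

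On day 12 against day 10, 6 of the 8 measured genes were higher and 2 were equal, with a median difference of 0.26. Of 19938 named genes, 5082 were higher, and of the 9969 passing the level filter 3309 were higher. The median over all named genes was 0.00. The set's median rests on which genes are kept, and was 0.74 over the 5 members passing the filter. Genes pass that filter by their highest day. None of the 8 was at least 2-fold higher or lower, while 0.787% of all named genes were past that size upward and 0.13% downward. Among the genes passing the level filter, 1.48% were past it upward. At the smaller size of 1.5-fold, 3 of the 8 were higher, namely Trem1, Clec4e and Lcn2, against 2.33% of all named genes.

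On day 14 against day 12, 5 of the 8 were lower, 1 was higher and 2 were equal, with a median of −0.41 against 0.00 over all named genes. Of all named genes 6132 were lower, and of those passing the filter 5017. The set's median was −1.08 over the 5 members passing the filter. That filter keeps genes by their highest day, which was day 12 for Trem1, Clec4d, Clec4e and Lcn2. Trem1, Clec4d and Clec4e made 3 of 8 genes that were at least 2-fold lower, against 0.196% of all named genes and 0.361% of those passing the level filter. No member was at least 2-fold higher, against 0.0552% of all named genes. At 1.5-fold, Lcn2 joined them and 4 of the 8 were lower, against 0.712% of all named genes.

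On day 14 against day 10, 4 of the 8 were lower, 3 were higher and 1 was equal, with a median of −0.08 that was −0.18 over the 5 members passing the filter. Of all named genes, 7102 were lower and 6954 higher. Trem1 alone was at least 2-fold lower, against 0.512% of all named genes and 0.913% of those passing the filter. No member was at least 2-fold higher, against 1.25%. At 1.5-fold, Trem1 and Clec4d were lower, against 2.98%. Both consecutive steps share the day 12 array, so that a value higher on day 12 than on day 10 and a value lower on day 14 than on day 12 are not independent measurements.

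**Figure D2:**
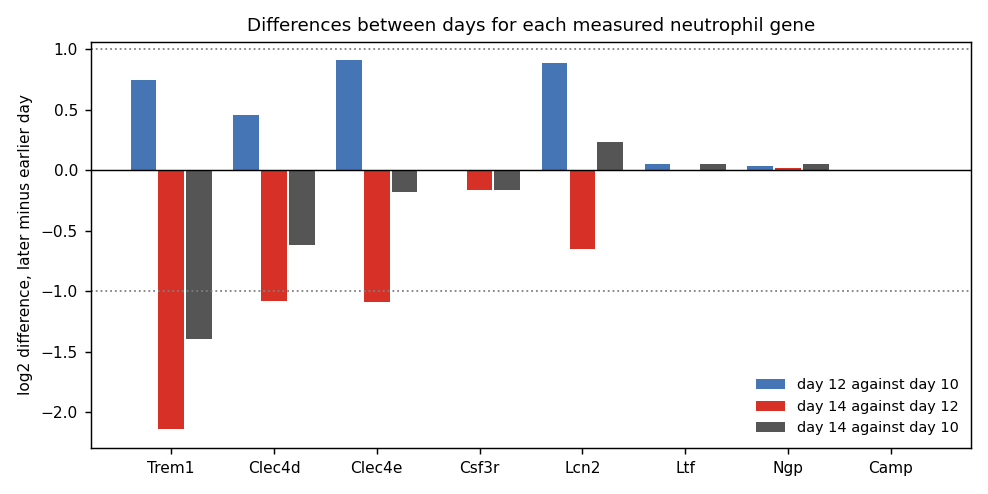
Log2 difference (vertical axis, later minus earlier day) of each of the 8 measured genes (horizontal axis) for the 3 pairs of days; each bar is a difference between single arrays, and dotted lines mark 2-fold. The bars for day 14 against day 12 pass the lower line for Trem1, Clec4d and Clec4e, and no bar reaches the upper line.

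The only spread that could be set beside these differences was that between probe sets of the same gene, read on the same arrays. In 627 genes with several probe sets, 95% of the probe sets lay within 0.20 log2 units of their gene's mean difference for day 12 against day 10. For day 14 the bound was 0.16 against day 12 and 0.22 against day 10. Between day 12 and day 10, the differences of Trem1, Clec4d, Clec4e and Lcn2 were larger than this spread. The same genes exceeded it on day 14 against day 12, while Csf3r, at −0.161 against 0.164, did not. Over the whole interval Trem1, Clec4d and, narrowly, Lcn2 exceeded it, and Clec4e at −0.18 did not. Genes passing the level filter had quartiles of −0.21 and 0.04 over that interval. Lower values of about the size of the bound were thus common there. How many named genes lay past each bound was not counted. The spread between probe sets does not include that between animals, between pools or between arrays. A difference larger than the bound is therefore not thereby shown to repeat. In whole tissue, fewer cells of a type and less RNA per cell cannot be told apart.

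Day 12 was strictly the highest day for 4 of the 8 genes, against 8.78% of all named genes. This share and the next are over all named genes, also those below the level filter. In a count chosen after the values were seen, Trem1, Clec4e and Lcn2 were at least 1.5-fold above both other days on day 12. So were 45 of 19938 named genes, or 0.226%. The 45 included 6 of 23 measured attractants, growth factors and receptor ligands, namely Cxcl2, Cxcl3, Ppbp, Ccl3, Il1b and Tnf, and 1 of 34 other neutrophil genes, Mmp8. They also included Cd14 of the macrophage markers, Lce3a of the activated keratinocyte markers and Alas2, the heme synthesis gene of red cell precursors. Eif2s3y and Uty, which lie on the Y chromosome, were among them too. Eif2s3y read 5.49 on day 10, 9.59 on day 12 and 8.38 on day 14, and Uty 5.49, 9.001 and 7.84. The pools thus differed in these Y-linked genes as well. With 1 pool per day, a difference in the sex of the pooled mice cannot be told apart from a difference between days. The part of these differences between pools in the results for the neutrophil genes was not tested.

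**Figure D3:**
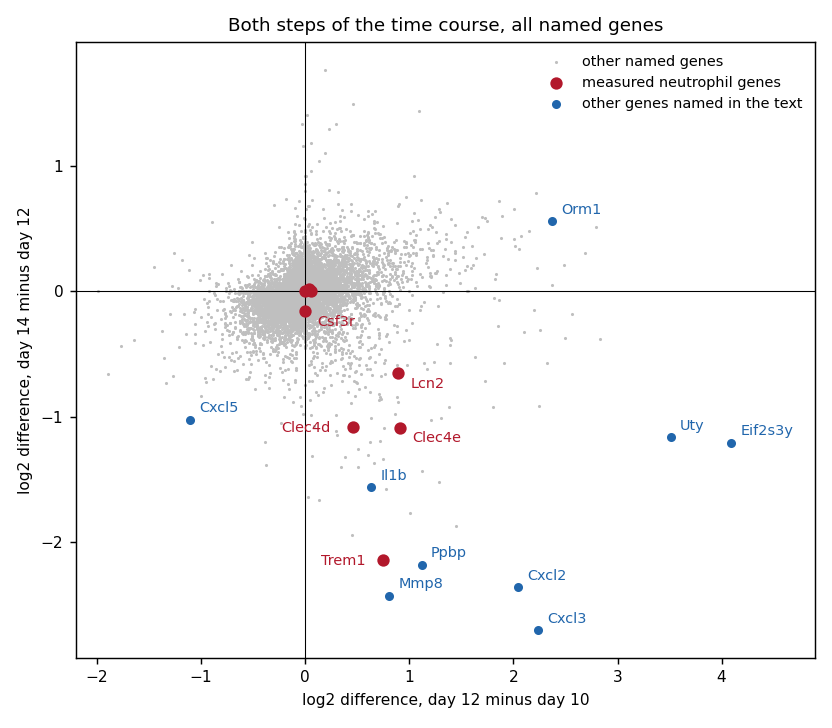
Log2 difference on day 14 minus day 12 (vertical axis) against that on day 12 minus day 10 (horizontal axis) for all named genes, each point 1 gene; red points are the 8 measured neutrophil genes and blue points other genes named in the text. Trem1, Clec4d, Clec4e and Lcn2 lie at the lower right, higher on day 12 and lower again on day 14, and Csf3r, Ngp, Ltf and Camp lie near the origin.

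The genes whose differences were most like those of each member were found by the Euclidean distance over both steps, which rests on 3 arrays. For Trem1 they were Mmp8, the neutrophil collagenase gene, at a distance of 0.29, Ptgs2, which encodes cyclooxygenase 2, at 0.35, and Ppbp, a chemokine gene of platelets, at 0.38. For Lcn2 they were the cytokine gene Tnf at 0.068, Ero1a at 0.12 and Cstdc6 at 0.16. Those nearest to Clec4e were the immediate early gene Fos at 0.12 and the keratinocyte envelope genes Sprr2f at 0.16 and Lce3e at 0.22. Clec4d was nearest to Hilpda at 0.16, to the arginase gene Arg1 at 0.18 and to Tnfrsf9 at 0.18. Csf3r had Fzd7, Casp8ap2 and Trim23 within 0.0023, at differences too small to tell genes apart.

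Other neutrophil genes behaved unevenly. Beside the counts for this and the following lists, 5082 of 19938 named genes were higher and 6876 lower on day 12 against day 10, and 6517 were higher and 6132 lower on day 14 against day 12, with medians of 0.00. Among the 9969 genes passing the level filter, the counts were 3309 and 4560 for the first step, and 2478 and 5017 for the second. Of all named genes, 0.787% were at least 2-fold higher and 0.13% lower in the first step, and 0.0552% and 0.196% in the second. Of 39 listed, 34 were measured and 18 passed the level filter. On day 12 against day 10, 17 were higher, 10 lower and 7 equal, with a median of 0.00. The acute-phase gene Orm1 was the only one at least 2-fold higher. On day 14 against day 12, 20 were lower, 7 higher and 7 equal, with a median of −0.08, and Mmp8 and Hp, the haptoglobin gene, were at least 2-fold lower. Mmp8 had log2 levels of 7.96, 8.77 and 6.35 on day 10, day 12 and day 14, the course most like that of Trem1. Hp differed by −1.20 on day 14 against day 12, Mmp9, the gelatinase gene, by −0.72 and Hdc, which encodes the histamine-forming enzyme, by −0.68, but Hp and Mmp9 were already lower on day 12 than on day 10.

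Markers of neutrophils were checked against the label of the gene set. Ly6g, the surface marker most used for mouse neutrophils, read 5.92, 5.87 and 5.81 on day 10, day 12 and day 14, below the level filter and near the lower quartile of all probe sets on the arrays, 5.91 on day 10. Retnlg read 7.24, 7.24 and 7.13, also below the filter. The primary granule genes Mpo, Elane, Prtn3 and Ctsg, made early in granulocyte development, did not pass the filter either. Cxcr2, a chemokine receptor gene of neutrophils, read 9.51, 9.85 and 9.39, and was thus highest on day 12. S100a8 read 11.1, 10.9 and 11.0 and S100a9 10.6, 10.3 and 10.3, with day 10 the highest for both, and these genes are also made by wound keratinocytes. In Trem1, Clec4d and Clec4e day 12 was above day 10 and day 10 above day 14, an order found in 3.2% of all named genes. The 19938 genes behind that share include 7980 with equal values on day 12 and day 10, and genes below the level filter. Over the list of other neutrophil genes this order was found in 9 of 34 measured genes, 8 of them among the 18 passing the level filter. The 9 were Mmp8, Cxcr2, Itgam, Fcgr4, Ncf4, Stfa2, Trem3, Alox5ap and Hdc. Ly6g, Retnlg, S100a8 and S100a9 did not have it, and the first pair of these lay below the filter. The order was also found outside the neutrophil genes. Of 19 measured macrophage and monocyte markers 10 had it, all among the 18 passing the filter. So did 7 of 23 attractants, growth factors and ligands and 7 of 21 signalling partners of the receptors. Among keratinocyte markers, 2 of 15 activated and 0 of 8 basal ones had this order. The order was counted at any size, and its share among genes passing the filter was not counted. In Cd68, C1qa, C1qc, Ms4a7, Lyz2 and Cx3cr1 day 12 was at most 0.09 above day 10. That is less than the spread of 0.20 between probe sets, which Cd14, Arg1, Msr1 and Fcgr1 exceeded. Small first steps were counted in other lists too, such as those of Ncf4, Saa3 and Tyrobp.

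On day 14 against day 12, Cxcl3, a chemokine gene whose product draws neutrophils, had the largest difference of any gene in the related lists. Of 23 measured attractants, growth factors and ligands, 5 reached a 2-fold higher value on day 12 compared with day 10, namely Cxcl2, Cxcl3, Ppbp, Ccl3 and Il1a, and Cxcl5 a 2-fold lower one. On day 14, 7 lay at least 2-fold below day 12 and none lay 2-fold above it, with a median of −0.01 over the list, since 7 were equal. Cxcl3 differed by 2.24 on day 12 against day 10 and by −2.70 on day 14 against day 12, Cxcl2 by 2.05 and −2.36, and Ppbp by 1.12 and −2.18. Saa3, an acute-phase gene, differed by 0.02 and −1.64. Anxa1, whose product binds formyl peptide receptors, read 12.3 on each day.

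No signalling partner of the receptors differed on day 14 against day 12 by as much as Trem1, Clec4d or Clec4e. Of 21 measured, 15 were higher on day 12 than on day 10 and 16 were lower on day 14 than on day 12. The medians were 0.05 and −0.13. None of the 21 reached 2-fold in either step, which is near the small shares of all named genes past that size. On day 14 against day 12, the largest sizes were those of Vav1 at −0.32, Fgr at −0.27, Fcer1g at −0.27 and Rac2 at −0.27. Tyrobp, the adaptor of Trem1, read 11.7, 11.7 and 11.5 on day 10, day 12 and day 14, and Syk read 9.63, 9.83 and 9.57.

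Receptors of the same families varied among themselves. Of 20 measured relatives, 10 were higher and 4 lower on day 12 than on day 10, and 3 were higher and 10 lower on day 14 than on day 12, with medians of 0.01 and −0.02. Treml4 differed by −0.35 and −0.77, Clec4n, which encodes dectin 2, by −0.20 and −0.52, Clec4a1 by 0.22 and −0.42, and Csf2rb by 0.20 and −0.40. Trem2, a receptor gene of macrophages, read 10.7 on each day. Among 9 transcription factor genes of granulocytes, none reached 2-fold, which is also near the small shares of all named genes past that size. Cebpe, which encodes the factor required for specific granules, did not pass the level filter, while Spi1, which encodes PU.1, differed by 0.23 and −0.43. Runx1 differed by −0.19 and −0.20, Cebpb by 0.29 and −0.09, and Cebpa by 0.55 and 0.04.

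Markers of other cell types in the tissue were set beside these genes. Of 19 measured macrophage and monocyte markers, 17 were higher on day 12 than on day 10 and 18 were lower on day 14 than on day 12. The medians were 0.22 and −0.23. None of the 19 was 2-fold higher on day 12, against 0.787% of all named genes. The median log2 levels of the 19 markers were 10.9, 11.2 and 10.6 on day 10, day 12 and day 14. Cd14 differed by 0.66 and −1.37, Arg1 by 0.51 and −1.26, Msr1 by 0.48 and −0.84, and Fcgr1 by 0.24 and −0.58. Of 15 activated keratinocyte markers, 7 were higher, 7 lower and 1 equal on day 12 against day 10, and 11 were lower on day 14 against day 12, with medians of 0.00 and −0.07 and a median level of 11.4, 12.0 and 12.0. Lce3a in that list differed by 0.78 and −1.57, and Defb3 by 0.85 and 0.39. S100a7a differed by −0.09 and −0.48, and Sprr1a by −0.13 and −0.36. The 8 basal keratinocyte markers had medians of 0.02 and 0.04, with Krt15 at 1.28 and 0.66, Col17a1 at 0.43 and 0.22, Trp63 at 0.29 and 0.13, and Cdh3 at −0.15 and −0.32. Of 12 red cell and platelet markers 5 were measured and only Pf4, which macrophages also make, passed the filter, with differences of 0.30 and −0.98. The part of these cells in the differences of Trem1, Clec4d, Clec4e and Lcn2 was not tested.

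**Figure D4:**
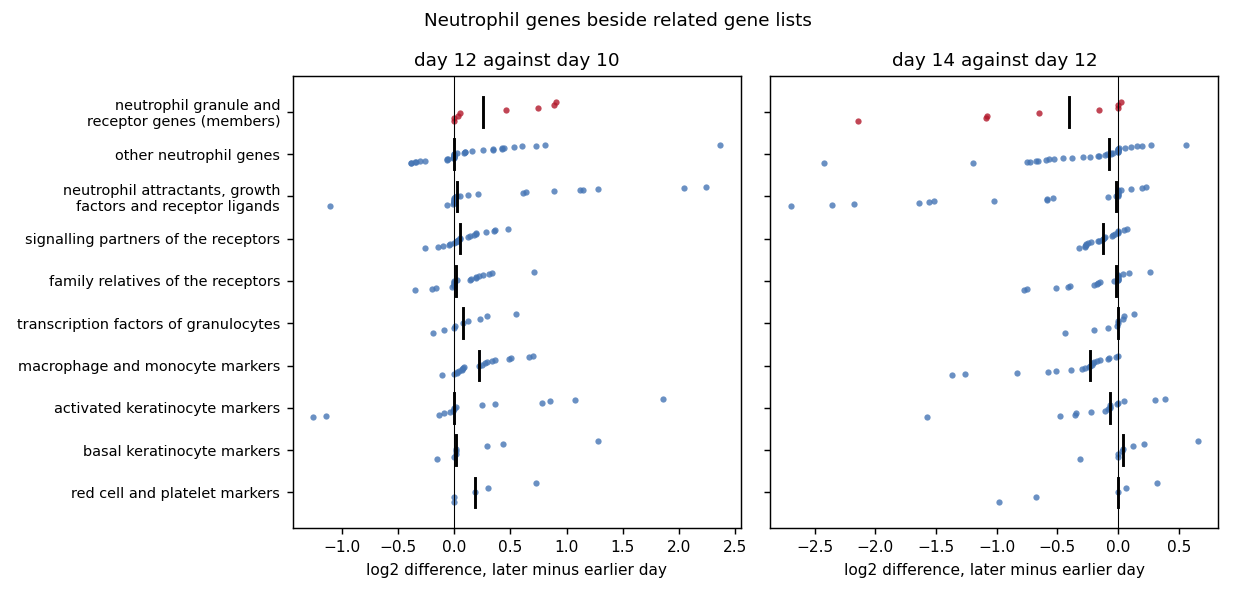
Log2 differences (horizontal axis, later minus earlier day) of every measured gene in the neutrophil set (red) and in the 9 related lists (blue, vertical axis) for day 12 against day 10 on the left and day 14 against day 12 on the right; each point is 1 gene and the black bar is the median of its row. The neutrophil set has medians of 0.26 and −0.41, the macrophage markers 0.22 and −0.23, and the attractant list has medians near 0 with long tails.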

How the data were processed

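The authors deposited 1 table of log2 expression values per probe set and array; per the submitters' processing notes, RMA and Partek 6.6 were used, in roles not given. The log2 scale was taken from the range, 4.37 to 14.1. Per the labels' protocols, 250 ng of total RNA was amplified for each pool. Genes were named by the platform annotation, using the 21789 probe sets with 1 symbol and leaving out 1621 with several and 12146 not listed, and probe sets of a gene were averaged. Array medians over all probe sets were 7.53, 7.55 and 7.53 on day 10, day 12 and day 14, and values were used as deposited. Differences, counts past 2-fold, ranks and distances were computed in Python 3.11.15 with pandas 2.3.3, and alternative scalings with limma 3.58.1 in R 4.3.3. Alternatives were level filters, a 1.5-fold size, other scalings and the brightest probe set per gene. The counting step was tested on simulated data. The set and the 9 related lists were chosen with earlier results of these data known. The text names every member, the 4 genes of each list with the largest absolute difference on day 14 against day 12 among those passing the level filter, the 3 nearest genes for each member passing it, and Eif2s3y and Uty. Other genes were chosen after their values were seen.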

Additional observations from a re-analysis of the deposited data

How the results depend on the processing

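No paired analysis was possible because each day had 1 array. The set's median difference and its counts at 2-fold, for the 3 pairs of days, kept their direction under array centring, quantile normalization, cyclic loess and the brightest probe set per gene. With only members passing the level filter (5 genes), the medians were 0.74 (day 12 against day 10), −1.08 (day 14 against day 12) and −0.18 (day 14 against day 10, where all measured members gave −0.08). With members whose mean lay in the top 25% of genes (2 genes), they were 0.68, −1.08 and, between day 14 and day 10, −0.40, and no gene was then 2-fold lower on day 14 than on day 10 (a count of 0), because Trem1 left the set. Both filters use fewer genes by construction. The level filter also keeps genes by their highest day, so its larger medians are not a separate check. At 1.5-fold, 3 genes were higher on day 12 against day 10, and 2 were lower on day 14 against day 10. Of the differences of single genes, Ngp on day 14 against day 12 turned to −0.0066 under cyclic loess, against 0.021 in the values as deposited, and the cause was not tested. Array signal over background is unknown here, so how far low values such as those of Ngp, Ltf and Camp are limited by it could not be measured.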

Other observations

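Among the 45 genes at least 1.5-fold above both other days on day 12, single genes outside the lists above are given here as values only, picked after their values were seen from a group that also holds keratinocyte and Y-linked genes, and each resting on 1 array per day. Nos2, which encodes inducible nitric oxide synthase, had log2 levels of 7.90 on day 10, 9.35 on day 12 and 7.49 on day 14. Acod1, which encodes the itaconate-forming enzyme of activated macrophages, read 9.49, 10.6 and 9.18 on the same days. Cd274, which encodes the checkpoint ligand PD-L1, read 9.33, 9.94 and 9.33, and the interferon-inducible gene Slfn4 read 10.3 on day 12 against 9.28 on day 10, and 8.51 on day 14. The stromelysin gene Mmp3 read 9.79, 11.0 and 9.98. Kdm5d, also Y-linked, was among the 45 as well, at 6.17 on day 10 and 8.42 on day 12.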
